A study of Papio anubis with 18 samples.

Results

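Of the 29475 Ensembl gene identifiers counted in pluripotent cells of the olive baboon, Papio anubis, 6 are described here: ENSPANG00000029409, ENSPANG00000021496, ENSPANG00000009797, ENSPANG00000020899, ENSPANG00000030608 and ENSPANG00000000094. They were chosen on the measured values, as genes detected in embryonic stem cells (ESC) and several-fold higher in both lines of induced pluripotent stem cells (iPSC). The difference between iPSC and ESC is therefore a description here. A test of it over all genes serves only to place the 6 genes in a ranking, and no support is read from it. The files do not pair the identifiers with gene names, so the products of these genes are not given, and markers of pluripotent or feeder cells were not analysed here.

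The study set the gene expression of baboon iPSC beside that of baboon ESC. The ESC lines were B4 and B15, the iPSC lines 160-2 and M14939#3, and each line gave 3 RNA-seq libraries. No line carried a genotype or treatment in the labels, and all 4 lines were grown on feeder cells in PluriSTEM medium. Each cell type was thus represented by 2 lines, and libraries of a line share their source. The labels do not say whether the 3 libraries of a line came from separate cultures, so spreads and p-values below refer to libraries and may be partly technical.

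An ESC line descends from an embryo, whereas an iPSC line comes from body cells that were returned to a pluripotent state by reprogramming factors. Both can renew themselves and form the germ layers, and both rest on a shared network of transcription factors. Lines of either kind can nevertheless differ through donor genotype, epigenetic marks that reprogramming did not reset, and changes gathered during culture, which is why studies compare several lines and culture ages. In the baboon, a primate close to humans, such lines serve as a model for stem cell research.

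Total counts ranged from 12049925 to 62634176 per library. Levels are given as CPM, the counts of a gene scaled to a common library total, which are not corrected for gene length, so levels are compared between libraries and not between genes. Of the 12 libraries, 6 were run on 2 lanes (4 ESC, 2 iPSC) and 6 on 1 lane (2 ESC, 4 iPSC). Each library also has a number after the letter p in its description, which the labels do not define: 16, 18 and 25 for replicates 1 to 3 of B4, 21, 28 and 43 for B15, 25, 65 and 84 for 160-2, and 16, 17 and 40 for M14939#3.

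The 6 genes occupy adjacent places in a ranking of the genes higher in iPSC. They were chosen on these same values, so the ranking shows where they lie and is not support for the difference. The quasi-likelihood test of edgeR set the mean of the iPSC lines against the mean of the ESC lines, and 77 of 17106 tested genes (0.45%) were higher in iPSC at an adjusted p (Benjamini-Hochberg) under 0.05, and 26 of these were at least 2-fold higher in each of the 4 pairings of iPSC with ESC lines. Ranked by the smallest of the 4 log2 differences, the 6 genes held places 7 to 12, from 2.36 for ENSPANG00000029409 to 1.68 for ENSPANG00000000094. The gene just above them, at 3.30, had a mean of 0.0518 CPM in ESC libraries and was thus close to absent there. The gene just below, at 1.68, had 3.02 CPM in ESC and 10.7 CPM in iPSC, so the lower edge of the choice does not mark a gap in the values.

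**Figure D1:**
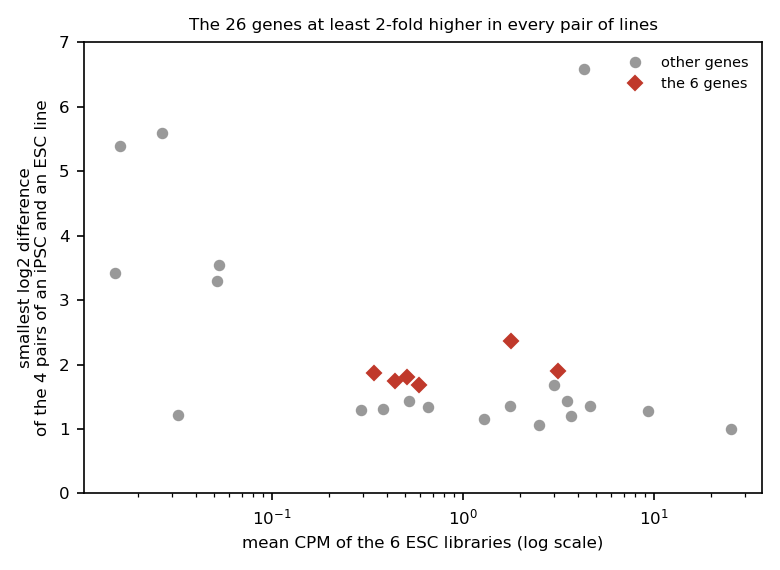
The 26 genes called higher in iPSC with a fitted difference of at least 2-fold in each pair of lines. The horizontal axis (logarithmic) is the mean CPM of the 6 ESC libraries. The vertical axis is the smallest of the 4 fitted log2 differences. The 6 genes described here (red diamonds) lie between 1.68 and 2.36, and the genes with larger differences are nearly absent from ESC libraries except ENSPANG00000035342, at 4.30 CPM.

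All 6 genes had at least 1 count in each of the 12 libraries, and all passed the filter on low counts, which lay near 0.378 CPM. ENSPANG00000009797 and ENSPANG00000030608 reached this level in 2 of 6 ESC libraries and passed through their iPSC libraries. In 5 of the 6 genes every iPSC library lay above every ESC library, a pattern seen in 0.497% of the tested genes. Because the genes were chosen for this difference, nothing is read from that count. The exception was ENSPANG00000030608.

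ENSPANG00000029409 was counted 1893 times in all. Its ESC levels were 2.75, 2.74 and 0.469 CPM in replicates 1 to 3 of B4, and 2.60, 1.12 and 1.08 CPM in those of B15. In iPSC it had 6.37, 9.996 and 9.93 CPM in 160-2, and 3.22, 8.69 and 13.5 CPM in M14939#3. The iPSC libraries all lay above the ESC libraries, but the lowest of them, M14939#3 replicate 1, was only 1.17 times the highest ESC library. Line means were 1.98 ± 1.31 CPM in B4, 1.60 ± 0.87 CPM in B15, 8.76 ± 2.08 CPM in 160-2 and 8.46 ± 5.14 CPM in M14939#3 (each with its SD over n = 3). Libraries of B4 and B15 overlapped, as did those of 160-2 and M14939#3, so within a cell type the order of the lines was not resolved.

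The most often counted of the 6, ENSPANG00000021496, with 3037 counts, was also the steadiest. B4 had 3.77, 2.90 and 3.81 CPM, and B15 had 3.70, 2.43 and 2.24 CPM. The libraries of 160-2 had 13.4, 14.1 and 11.2 CPM, and those of M14939#3 had 11.5, 14.6 and 15.9 CPM. Even the lowest iPSC library was 2.95 times the highest ESC library, the widest gap among the 6 genes. Means were 3.49 ± 0.51 CPM in B4, 2.79 ± 0.80 CPM in B15, 12.9 ± 1.5 CPM in 160-2 and 14.0 ± 2.3 CPM in M14939#3 (each with its SD over n = 3), and lines of a type overlapped. Its SD within lines, 0.25 on the log2 CPM scale, was below that of most genes, as 13.1% of the tested genes had a smaller one.

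ENSPANG00000009797 was near the limit of detection in ESC, with 72 counts in the 6 libraries. Levels there were 0.564, 0.249 and 0.322 CPM in B4 and 0.543, 0.291 and 0.083 CPM in B15, where the last value rests on 2 counts. They were 3.82, 4.90 and 3.65 CPM in 160-2, and 0.652, 1.51 and 1.98 CPM in M14939#3. Each library of 160-2 was therefore above each library of M14939#3, and the lowest library of M14939#3 was 1.16 times the highest ESC library. These last 2 libraries held 15 and 16 counts, and their 95% intervals for counting error overlapped (0.365 to 1.08 and 0.322 to 0.915 CPM). The order of the means was 160-2 (4.12 ± 0.68 CPM), M14939#3 (1.38 ± 0.67 CPM), B4 (0.378 ± 0.165 CPM) and B15 (0.306 ± 0.230 CPM), each with its SD over n = 3. The measured levels of the libraries, counting error aside, overlapped only between the ESC lines.

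ENSPANG00000020899 was low and even in ESC, at 0.634, 0.415 and 0.381 CPM in B4 and 0.447, 0.582 and 0.622 CPM in B15. In 160-2 it had 4.64, 1.38 and 3.42 CPM, and in M14939#3 2.26, 2.12 and 1.499 CPM. The iPSC libraries were all above the ESC libraries, by 2.18 times at the nearest point, and the spread was widest within 160-2, whose replicate 2 was the lowest of the iPSC libraries. Means were 0.477 ± 0.137 CPM in B4, 0.550 ± 0.092 CPM in B15, 3.15 ± 1.65 CPM in 160-2 and 1.96 ± 0.41 CPM in M14939#3 (each with its SD over n = 3).

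ENSPANG00000030608 was the least counted of the 6 genes, with 398 counts, and the most uneven. B4 had 0.951 and 1.33 CPM in replicates 1 and 2 but 0.0586 CPM in replicate 3, which held 2 counts. B15 had 0.224, 0.0485 and 0.0415 CPM, from 14, 1 and 1 counts, so its presence in that line rests on replicate 1. In 160-2 the levels were 1.52, 2.28 and 0.789 CPM, and in M14939#3 2.96, 2.81 and 1.01 CPM. Replicates 1 and 2 of B4 reached into the iPSC range: 2 ESC libraries lay at or above the lowest iPSC library, and 2 iPSC libraries at or below the highest ESC library. Means were 0.779 ± 0.652 CPM in B4, 0.105 ± 0.103 CPM in B15, 1.53 ± 0.75 CPM in 160-2 and 2.26 ± 1.08 CPM in M14939#3 (each with its SD over n = 3). The SD within lines was 1.17 on the log2 CPM scale, larger than in 96.2% of the tested genes, which span all levels. The biological coefficient of variation of edgeR, the spread beyond counting error, was 57.6%, against 40.5% on its trend for genes of that level.

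ENSPANG00000000094 had 0.423, 0.664 and 0.850 CPM in B4 and 0.287, 0.534 and 0.788 CPM in B15. Its iPSC levels were 2.84, 2.62 and 1.81 CPM in 160-2, and 2.13, 2.45 and 2.20 CPM in M14939#3. The 3 libraries of M14939#3 were among the tightest groups here, with a coefficient of variation of 7.34%, against 22.4% in 160-2. The nearest iPSC and ESC libraries were 2.13-fold apart. The means were 0.645 ± 0.214 CPM in B4, 0.536 ± 0.250 CPM in B15, 2.42 ± 0.54 CPM in 160-2 and 2.26 ± 0.17 CPM in M14939#3 (each with its SD over n = 3), with overlap between the lines of each type.

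**Figure D2:**
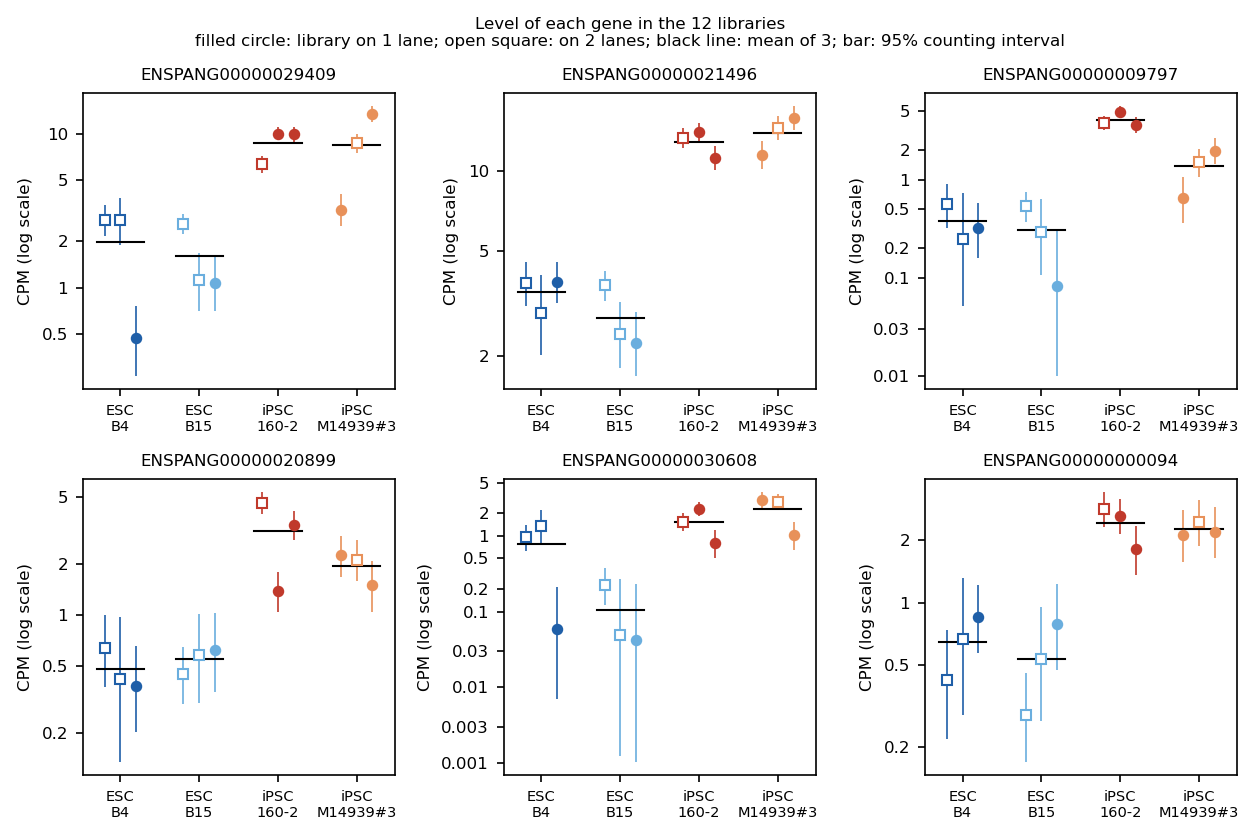
CPM (logarithmic axis) of each of the 6 genes in the 12 libraries, by line, with replicates 1 to 3 from left to right, filled circles for libraries on 1 lane and open squares for libraries on 2 lanes. Black lines are means of 3 libraries and bars are 95% counting intervals, which cover counting error only; the groups of iPSC and ESC libraries are apart in 5 panels and overlap for ENSPANG00000030608.

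The fitted difference from ESC, where 2 on the log2 scale is 4-fold, ran from 1.98 to 3.66 in 160-2 and from 1.80 to 3.32 in M14939#3. In 160-2 the fitted log2 differences from the mean of the ESC lines were 3.66 for ENSPANG00000009797 (SE 0.47), 2.93 for ENSPANG00000030608 (SE 0.71), 2.63 for ENSPANG00000020899 (SE 0.37) and 2.60 for ENSPANG00000029409 (SE 0.56). ENSPANG00000021496 followed at 2.03 (SE 0.23) and ENSPANG00000000094 at 1.98 (SE 0.37). In M14939#3 the differences were 3.32 for ENSPANG00000030608 (SE 0.69), 2.42 for ENSPANG00000029409 (SE 0.54), 2.08 for ENSPANG00000021496 (SE 0.23), 1.99 for ENSPANG00000009797 (SE 0.48), 1.94 for ENSPANG00000020899 (SE 0.39) and 1.80 for ENSPANG00000000094 (SE 0.38). Single libraries moved some of these sizes. In 160-2, the difference of ENSPANG00000030608 was 2.23 without B4 replicate 3, 2.29 without 160-2 replicate 2 and 3.84 without 160-2 replicate 1, and that of ENSPANG00000029409 was 3.30 without 160-2 replicate 1. In M14939#3, it was 1.77 for ENSPANG00000029409 without M14939#3 replicate 3 and 2.67 for ENSPANG00000030608 without B4 replicate 3. The median over the 6 genes was 2.61 in 160-2 and 2.03 in M14939#3. As ratios of mean CPM, the range was 3.46-fold (ENSPANG00000030608) to 12.1-fold (ENSPANG00000009797) in 160-2, and 3.82-fold (ENSPANG00000020899) to 5.12-fold (ENSPANG00000030608) in M14939#3.

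**Figure D3:**
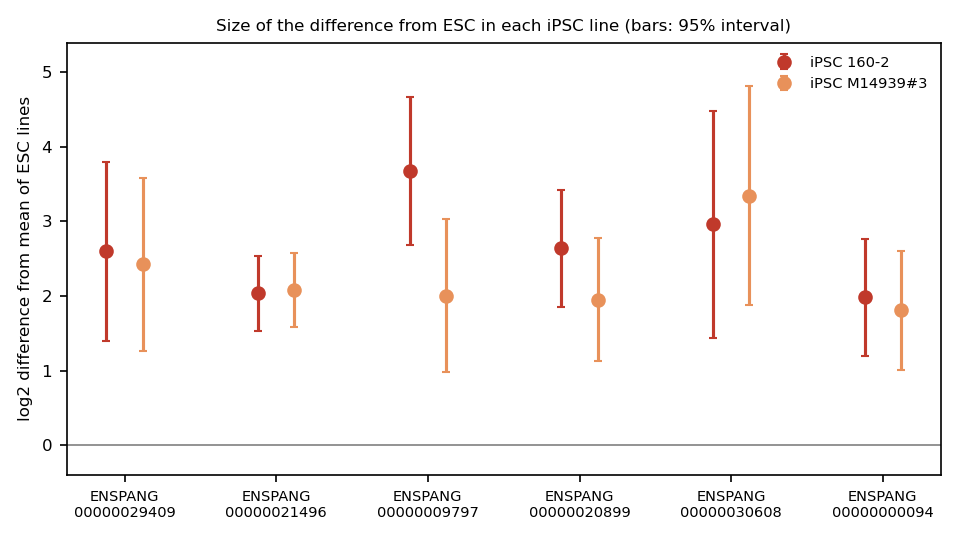
Fitted log2 difference of each iPSC line from the mean of the ESC lines, with 95% intervals, for the 6 genes. The lines are farthest apart for ENSPANG00000009797, where 160-2 stands at 3.68 and M14939#3 at 2.00 before shrinkage, and nearest for ENSPANG00000021496.

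Whether the size differed between the iPSC lines was tested with the contrast of M14939#3 with 160-2, which equals the difference between their distances from ESC. The choice asked for a large distance in both lines, so this contrast is not wholly independent of it. ENSPANG00000009797 alone passed the threshold: its log2 difference was -1.67, lower in M14939#3 (edgeR, SE 0.50, adjusted p = 0.0486), with each of the 3 libraries below each of those of 160-2. This was 1 of 6 genes, while 8.84% of all tested genes differed between the iPSC lines and 30.5% had libraries of the 2 lines that did not overlap. The adjusted p ranged from 0.00536 to 0.197 over 19 alternatives, and the call was lost in 11 of them. The log2 difference stayed between -1.95 and -1.35 in these 11. They were the shared lane only (-1.85, adjusted p = 0.0580 by edgeR), no term for the library set (-1.65, 0.0808), the replicate number as a block (-1.69, 0.0679), and the fits without any 1 replicate of B4 (0.0525 to 0.0599), any 1 of 160-2 (0.0660 to 0.197), or replicates 1 (0.185) or 2 (0.147) of M14939#3. The other 5 genes had differences from -0.68 (ENSPANG00000020899, 95% interval -1.57 to 0.20, adjusted p = 0.302 by edgeR) to 0.39 (ENSPANG00000030608, 95% interval -1.03 to 1.81, adjusted p = 0.754 by edgeR). The interval was narrowest for ENSPANG00000021496, from -0.51 to 0.61 around 0.05, so a difference of 2-fold in either direction lay outside it. A 2-fold difference in at least 1 direction lay inside the intervals of ENSPANG00000029409 (-1.37 to 1.03), ENSPANG00000030608, ENSPANG00000020899 and ENSPANG00000000094 (-1.06 to 0.71).

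Between the ESC lines no gene of the 6 passed the threshold, against 0.368% of all tested genes. By DESeq2 none passed either, where 0.78% of all genes did. At an unadjusted p under 0.05 there was 1 in edgeR, where 9.2% of all tested genes stood. That gene was ENSPANG00000030608, at a log2 difference of -2.37, lower in B15 than in B4 (edgeR, SE 0.87, adjusted p = 0.421), with B4 replicate 3 inside the range of B15. Without a filter on low counts its adjusted p was 0.0167 in edgeR, where 1.37% of all genes were called. Differences of the other 5 genes lay between -0.25 (ENSPANG00000021496) and 0.27 (ENSPANG00000020899). A 2-fold difference in at least 1 direction lay inside the 95% intervals of ENSPANG00000029409 (-1.43 to 1.19) and ENSPANG00000009797 (-1.52 to 1.04). The same held for ENSPANG00000020899 (-0.76 to 1.31) and ENSPANG00000000094 (-1.27 to 0.79). For these genes a difference of that size between the ESC lines was therefore not excluded. Such a difference lay outside the interval of ENSPANG00000021496 (-0.85 to 0.34). For none of the 6 were the libraries of the ESC lines apart, as they were for 9.13% of the tested genes.

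The size of the difference from ESC was also computed separately for each library set (1 lane or 2 lanes), and the genes differed in which set had the larger ratio. Each ESC line has 1 library on 1 lane, and each iPSC line 1 library on 2 lanes. The ratios therefore rest on single libraries of those lines and have no spread. Among libraries on 2 lanes, ENSPANG00000029409 had 2.30 CPM as the mean of the ESC lines, 6.37 CPM in 160-2 and 8.69 CPM in M14939#3, ratios of 2.77 and 3.78. Among libraries on 1 lane the ESC mean was 0.774 CPM, and the ratios were 12.9 for 160-2 and 10.8 for M14939#3. ENSPANG00000030608 had 1 and 2 counts in the ESC libraries on 1 lane (0.0415 and 0.0586 CPM), where the iPSC libraries had 0.789 to 2.96 CPM, and on 2 lanes its ratios were 2.39 and 4.41. The ratios of ENSPANG00000021496 were 4.19 and 4.53 on 1 lane and 4.20 and 4.57 on 2 lanes, as large in the one set as in the other. ENSPANG00000000094 went the other way, with ratios of 2.70 and 2.65 on 1 lane and 5.95 and 5.13 on 2 lanes. For ENSPANG00000009797 the ratios were 21.1 and 6.50 on 1 lane, where the ESC libraries of B4 and B15 held 11 and 2 counts, and 9.27 and 3.67 on 2 lanes. ENSPANG00000020899 had ratios of 4.79 and 3.75 on 1 lane, and 8.93 and 4.08 on 2 lanes.

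In the test of the sets within lines, 0 of the 6 genes passed the threshold in edgeR or DESeq2, where 6.51% of all tested genes did in edgeR. DESeq2 called 6.06% of all genes. At an unadjusted p under 0.05 there were 0 in edgeR, against 20.6% of all tested genes, and 1 in DESeq2. ENSPANG00000030608 had the largest difference, -1.06 on the log2 scale in the libraries on 1 lane (SE 0.63, adjusted p = 0.371 by edgeR). The sets cannot be told apart from the p number in the ESC lines, where the library on 1 lane is the one with the highest number. They are mixed with it in 160-2 too, where the library on 2 lanes has the lowest number.

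The relation to the p number had no common direction. Over the 6 genes and 4 lines, the level was higher at the highest than at the lowest number in 9 of 24 cases and lower in 15, and the 3 libraries of a line followed the number upward in 6 cases, downward in 9 and in neither order in 9. In edgeR, with the line and log2 of the number as terms, 0 of the 6 genes had a slope past the threshold, against 0.52% of all tested genes, and 0 had an unadjusted p under 0.05, against 2559 of the 17106 tested genes. DESeq2 called 0 as well, against 2.84% of all genes, with 1 at an unadjusted p under 0.05. Slopes per doubling of the number ran from -0.93 on the log2 scale for ENSPANG00000030608 (95% interval -2.08 to 0.19, adjusted p = 0.434 by edgeR) to 0.23 for ENSPANG00000029409 (95% interval -0.63 to 1.08, adjusted p = 0.848 by edgeR). With a term for the library set added, the slope of ENSPANG00000029409 was 1.45 (SE 0.46, adjusted p = 0.9998 by edgeR), and with the replicate number as a block it was 1.47 (SE 0.85, adjusted p = 0.991 by edgeR), both above the interval given. ENSPANG00000021496 had the tightest interval, -0.40 to 0.36 around -0.02.

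ENSPANG00000030608 was lower at the highest than at the lowest number in all 4 lines, a pattern shared by 11.1% of the tested genes. The levels were 0.951 against 0.0586 CPM in B4, 0.224 against 0.0415 CPM in B15, 1.52 against 0.789 CPM in 160-2 and 2.96 against 1.01 CPM in M14939#3. In both iPSC lines these endpoints were 1.93-fold and 2.92-fold apart, and in 160-2 the library with the middle number was the highest.

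ENSPANG00000029409 ran in opposite directions in the cell types. From the lowest to the highest number it went from 2.75 to 0.469 CPM in B4 and from 2.60 to 1.08 CPM in B15, but from 6.37 to 9.93 CPM in 160-2 and from 3.22 to 13.5 CPM in M14939#3. The iPSC and ESC libraries nearest to each other, replicate 1 of M14939#3 and of B4, both had the number 16. Of the tested genes, 4.76% were lower at the highest number in both ESC lines and higher in both iPSC lines. The slope was -1.87 per doubling in ESC lines and 0.66 in iPSC lines, a difference of 2.53 on the log2 scale (SE 0.76, unadjusted p = 0.00515, adjusted p = 0.660 by edgeR). In the iPSC lines the number was not the only thing that varied: replicates 1 and 2 of M14939#3, with the numbers 16 and 17, differed 2.70-fold in this gene, and they belong to different library sets. Inside a set, from the lower to the higher number, levels were 2.75 and 2.74 CPM in B4 and 2.60 and 1.12 CPM in B15 (2 lanes). On 1 lane they were 9.996 and 9.93 CPM in 160-2 and 3.22 and 13.5 CPM in M14939#3. In the libraries on 1 lane, where only the iPSC lines have 2 libraries each, the slope was 1.44 (SE 0.34, adjusted p = 0.00414 by edgeR, with 2.1% of all tested genes called). On 2 lanes, where only the ESC lines have 2 each, it was -1.52 (SE 1.31, adjusted p = 0.474 by edgeR). Both fits were chosen after seeing the data and have 1 residual degree of freedom.

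By the same test of the difference in slope, 0 of the 6 genes passed the threshold in edgeR and 0 in DESeq2. Over all tested genes 0 passed in edgeR (0.0%) and 42 in DESeq2, with 1047 (6.12%) at an unadjusted p under 0.05 in edgeR. At that unadjusted level stood 4 of the 6 genes, of which ENSPANG00000009797 and ENSPANG00000030608 passed the filter only through their iPSC libraries and had as few as 2 and 1 counts in an ESC library, so nothing is read from the count. Beside ENSPANG00000029409 they were ENSPANG00000009797 with a difference of 2.16 (unadjusted p = 0.0205, adjusted p = 0.766 by edgeR), ENSPANG00000030608 with 3.69 (unadjusted p = 0.0295, adjusted p = 0.799 by edgeR) and ENSPANG00000000094 with -1.51 (unadjusted p = 0.0326, adjusted p = 0.803 by edgeR). The last was the only one of the 4 that was higher at higher numbers in ESC: its level followed the number upward in both B4 and B15 and downward in 160-2. Leaving out single libraries gave 2 to 4 such genes, with 2 when B15 replicate 1, B15 replicate 3, B4 replicate 3 or 160-2 replicate 1 was left out. With the replicate number as a block there were also 2, since ENSPANG00000030608 (unadjusted p = 0.127 by edgeR) and ENSPANG00000000094 (0.0854) were above that level, and with the shared lane only there were 2 as well (0.0540 and 0.0570 for the same genes). The ESC slopes rest on numbers from 16 to 43 and the iPSC slopes on numbers from 16 to 84.

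**Figure D4:**
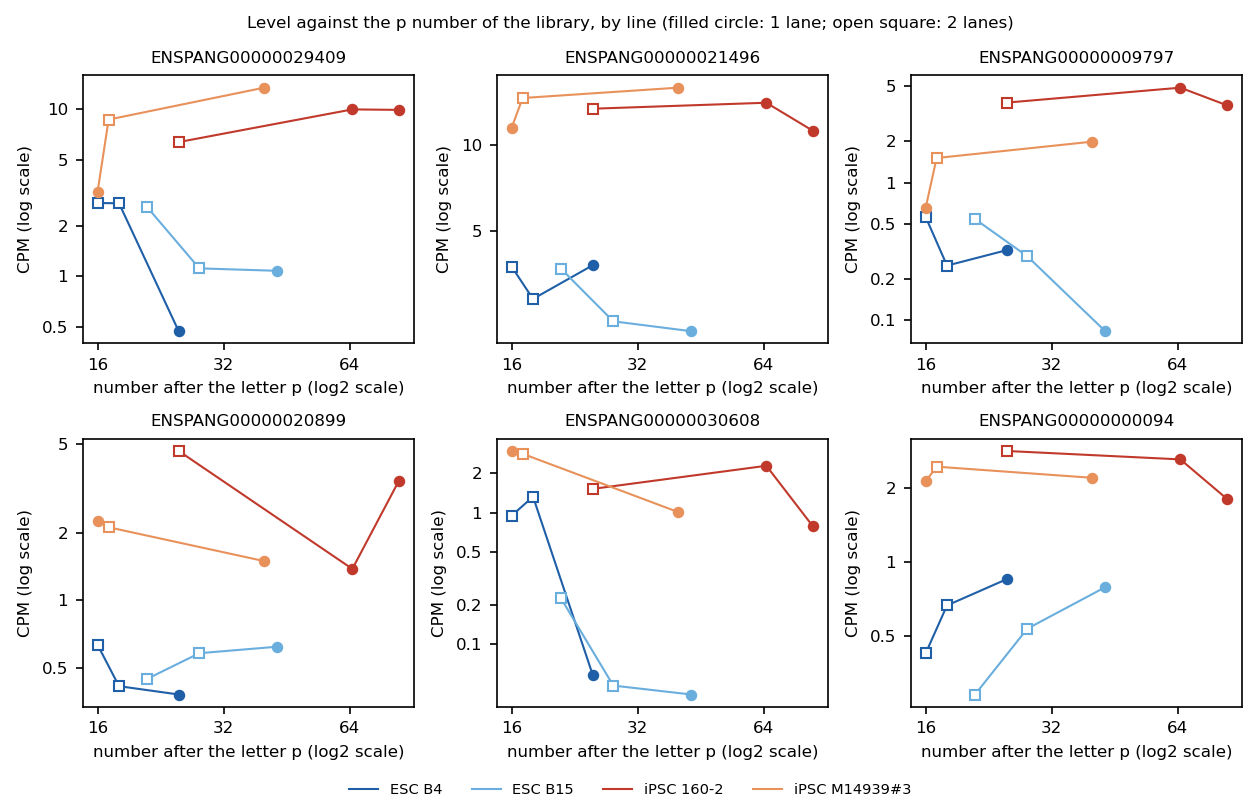
CPM (logarithmic axis) of the 6 genes against the number after the letter p (log2 axis), with a line joining the 3 libraries of each cell line, filled circles for 1 lane and open squares for 2 lanes. ENSPANG00000029409 is lower at the highest number in both ESC lines and higher in both iPSC lines, and for ENSPANG00000021496 the libraries with the lowest and the highest number of a line are at most 1.65-fold apart.

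The 6 genes followed each other across cell types, as the choice ensured, but mostly not within lines. Over the 12 libraries, which share their depth and library set between genes, Pearson's r of log2 CPM between 2 of the genes was 0.61 to 0.89 (15 pairs, median 0.77). For deviations of the libraries from their line means, r ranged from -0.50 to 0.91, with a median of -0.03, and 5 of the 15 pairs were above 0. The highest value, 0.91, joined ENSPANG00000021496 and ENSPANG00000009797, a pair singled out after its value was seen. Their libraries came in the same order in 3 of the 4 lines, the exception being B4, where both were lowest in replicate 2. Among 17105 other genes, ENSPANG00000009797 held place 3 by this measure for ENSPANG00000021496, so other genes varied with it at least as closely. These correlations are descriptions over 12 libraries and were not tested.

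**Figure D5:**
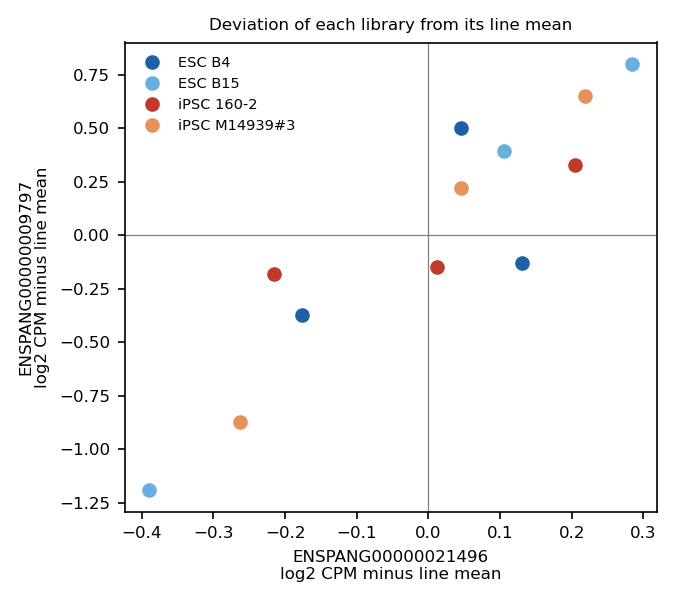
Deviation of each of the 12 libraries from the mean of its line, in log2 CPM, for ENSPANG00000021496 (horizontal) and ENSPANG00000009797 (vertical), coloured by line. The points follow a rising course with r = 0.91, and the vertical axis spans a wider range than the horizontal one.

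Outside the 6 genes, the patterns most like theirs, by the mean of the 6 correlations of log2 CPM over the 12 libraries, were those of ENSPANG00000005066 and ENSPANG00000035342. ENSPANG00000005066 had a mean r of 0.87 (0.70 to 0.98), with 9.27 ± 1.37 CPM in ESC and 25.8 ± 3.6 CPM in iPSC (SD, n = 6 each). ENSPANG00000035342 had a mean r of 0.86 (0.73 to 0.97), and its iPSC libraries, at 385 to 774 CPM, stood far above its ESC libraries, at 3.25 to 5.35 CPM. Likeness by correlation thus took in differences between cell types of very unequal size. For each of the 6 the most correlated gene overall was not another of the 6, with r from 0.86 for ENSPANG00000030608 to 0.98 for ENSPANG00000021496.

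Reads of near-identical gene copies and of genes overlapping on the opposite strand cannot be told apart in these counts, and which of the 6 this touches was not tested.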

How the data were processed

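RNA-seq of 4 baboon lines was analysed from a table of raw read counts per Ensembl gene that the authors deposited, in 18 columns, 1 for every lane of a library. Libraries were prepared with SMART-Seq v4 and Nextera XT kits, which keep no strand information, per the labels' protocols. FeatureCounts and edgeR are named per the submitters' processing notes, without role. An aligner, a genome build or an annotation was not given in the sources used here. The reference table (39274 genes) matched 0 identifiers.

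Lanes of a library were summed and groups taken from the sample titles. The 6 genes, the comparisons and the rule for the 2 most alike genes were chosen with earlier results of these data known. Genes were tested with edgeR 4.0.16 in R 4.3.3 (TMM, filterByExpr, robust quasi-likelihood fit, 12 libraries, terms for line and library set, or line and log2 p number), adjusted over all 17106 genes. Log2 differences are edgeR's shrunken values; each SE is the unshrunken difference over the square root of F, and 95% intervals are centred on the unshrunken value. Log2 CPM used a prior count of 2. Alternatives included DESeq2 1.42.0, RLE factors, no filter, the shared lane only, a replicate block, and leaving out each library. The code was tested on simulated data.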

Additional observations from a re-analysis of the deposited data

Results flagged for a closer look

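ENSPANG00000009797 was the 1 of the 6 genes called as different between the iPSC lines in its distance from ESC. The test of the difference itself gave -1.67 on the log2 scale for M14939#3 relative to 160-2 (edgeR adjusted p = 0.0486, 0.00536 to 0.197 over 19 alternatives), with 1.38 ± 0.67 CPM against 4.12 ± 0.68 CPM (SD, n = 3 each). All 3 libraries of M14939#3 were lower than those of 160-2. In the same contrast 8.84% of all tested genes were called and 30.5% had libraries that did not overlap, and the call for this gene was lost in 11 of the 19 alternatives. No library passed the 95% critical value of Dixon's ratio among the 6 of its cell type in any of the 6 genes, the highest ratio in 12 groups being 0.375. The ratio was taken on CPM over both lines of a type, where a library near 0 can hardly stand apart. It therefore does not exclude such libraries. For ENSPANG00000030608, B4 replicate 3 had 0.0586 CPM, against 0.951 and 1.33 CPM in replicates 1 and 2.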

How the results depend on the processing

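Over 20 alternatives, the 240 recomputed distances of the 6 genes from ESC in an iPSC line were all above 0, the lowest at 1.35 on the log2 scale. The genes were chosen for this difference in the same libraries, so the sign follows from the choice and is not support. The median of the 6 distances lay between 2.19 and 3.05 in 160-2 and between 1.90 and 2.55 in M14939#3. The 1 gene that differed between the iPSC lines, ENSPANG00000009797, kept its direction throughout and was lost (0 of 6 genes) with the shared lane only, with no term for the library set and with the replicate number as a block. Leaving out single libraries gave 0 to 1 genes; the libraries and adjusted p are given with the result. Between the ESC lines 1 gene was called without a filter on low counts. A slope with the p number was called in 1 gene within the libraries on 1 lane. No gene of the 6 was called for the library sets or for the difference in slope under any alternative run; in those fits a 2-fold difference lay within the interval of most of the 6, which the depth and 12 libraries do not resolve.

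Same-numbered libraries of different lines deviated together only in part (r -0.22 to 0.44 over 18 pairs, median 0.20, 11 above 0.1). Those of the same library set all had r above 0 (0.027 to 0.44), and those of different sets all below 0 (-0.22 to -0.075). Pairs with different numbers in the same set had r from -0.11 to 0.45, so likeness by number could not be told apart from likeness by set. Of the 12 libraries, 8 were best matched by a library with their own number. The replicate number is mixed with the library set, and the labels do not call it a pairing. It was therefore left out of the main fits and used as a block in an alternative. With the replicate block, uncalled differences changed sign for ENSPANG00000030608 (library sets 0.039, slope 1.05), ENSPANG00000021496 (slope 0.15), ENSPANG00000000094 (slope -0.68) and ENSPANG00000020899 (difference in slope 0.025). Other sign changes were all of uncalled differences. With the shared lane only they were 0.023 for ENSPANG00000000094 between the iPSC lines and 0.0025 for the slope of ENSPANG00000021496. Slopes with a term for the library set were 0.12 for ENSPANG00000021496 and -0.072 for ENSPANG00000000094, and per unit of the p number itself -9.15e-05 for the latter. On 1 lane only, their slopes were 0.26 and -0.078. On 2 lanes only, the ESC lines differed by 0.085 in ENSPANG00000009797, and slopes were -1.52 for ENSPANG00000029409, -1.67 for ENSPANG00000009797 and 1.42 for ENSPANG00000020899; these sets of libraries were chosen after seeing the data.

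Leaving out single libraries moved uncalled differences across 0 as follows. Between the iPSC lines the range was -1.09 to 0.21 for ENSPANG00000029409, -0.10 to 0.19 for ENSPANG00000021496, -0.34 to 1.29 for ENSPANG00000030608 and -0.39 to 0.080 for ENSPANG00000000094. Between the ESC lines it was -0.68 to 0.15 for ENSPANG00000029409, -0.87 to 0.21 for ENSPANG00000009797 and -0.56 to 0.17 for ENSPANG00000000094. For the library sets it was -0.20 to 0.015 for ENSPANG00000021496. Slopes ran from -0.21 to 0.41 for ENSPANG00000029409, -0.15 to 0.054 for ENSPANG00000021496, -0.32 to 0.23 for ENSPANG00000009797 and -0.042 to 0.41 for ENSPANG00000000094, and the difference in slope from -0.82 to 0.31 for ENSPANG00000020899.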
